A study of Mus musculus with 12 samples.

Results

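The interleukin-1 (IL-1) family was followed through 10 genes in mouse colon: the ligands Il1a, Il1b, Il18 and Il33, the receptor antagonist Il1rn, the receptors Il1r1, Il1r2, Il1rap and Il1rl1, and the soluble inhibitor Il18bp. They were chosen by name, as the rows of the deposited expression table whose Ensembl identifiers carry these symbols, and all 10 were found among the 54532 genes listed. The samples were colon RNA of wild-type C57BL/6J mice in 4 groups of 3. One group was labelled CD, an abbreviation the labels do not spell out, and one HFD, a high-fat diet. The other two groups had the same diets together with 2% DSS (dextran sulfate sodium, a polymer that damages the colonic epithelium and is used to induce colitis), and are called CD+DSS and HFD+DSS. The labels give neither age, sex, the length of diet or DSS, the segment of colon, nor whether a sample was 1 animal, so p-values measure the spread between these samples. The study asked how a high-fat diet bears on colitis.

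IL-1 alpha and IL-1 beta bind the IL-1 receptor type 1 (Il1r1), which then recruits the accessory chain Il1rap and signals through the adaptor Myd88 to NF-kappaB. The antagonist encoded by Il1rn occupies the same receptor without signalling, and Il1r2 is a decoy receptor that binds ligand and does not signal. IL-18 and IL-33 use related receptors with the same adaptor: IL-18 is neutralised by Il18bp, and IL-33 is bound by ST2, the product of Il1rl1, which exists in membrane and soluble forms. In the gut, IL-1 beta comes mainly from myeloid cells, IL-18 is made by the epithelium, and IL-33 is held in the nuclei of stromal, endothelial and epithelial cells until damage releases it.

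In these libraries Il1rn was the only member whose rise with DSS passed the test across all genes when both diets were averaged. Every DSS library lay above every library without DSS in Il1rn. In 10 of 19 alternative fits its difference no longer passed. Il33, Il18, Il1b and Il18bp had positive DSS differences of about the same size that did not pass, with Il33 the closest (limma adjusted p = 0.0549). Il1r1, Il1r2, Il1rap and Il1rl1 had smaller averaged differences than these 5 genes. Il18 was highest in HFD+DSS and lowest in HFD, and Il1rl1 was highest in CD+DSS, but no difference between the diets passed the test.

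Il1rn lies on chromosome 2 (mm10, 24336853 to 24351494, plus strand). The gene has several start sites, from which a secreted and an intracellular form of the antagonist arise, and a value per gene does not separate them. The promoter stretches of 2 of its starts are shown because Il1rn is the member whose DSS difference passed the test, and that of Il1b because its product is the ligand the antagonist competes with. Sequences are from RefSeq (GRCm38.p6, the assembly called mm10), from 250 to 11 bases before the start, 5′ to 3′ on the gene's strand. Capitals mark a match to the AP-1 motif TGANTCA. The first is chr2:24336610-24336849 (plus strand), the second chr2:24345041-24345280 (plus strand) and the third chr2:129371150-129371389 (minus strand).
Il1rn, upstream start: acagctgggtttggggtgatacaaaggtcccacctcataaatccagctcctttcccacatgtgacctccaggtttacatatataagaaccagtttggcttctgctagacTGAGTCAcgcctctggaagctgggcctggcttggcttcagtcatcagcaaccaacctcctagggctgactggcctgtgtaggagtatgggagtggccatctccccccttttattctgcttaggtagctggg
Il1rn, downstream start: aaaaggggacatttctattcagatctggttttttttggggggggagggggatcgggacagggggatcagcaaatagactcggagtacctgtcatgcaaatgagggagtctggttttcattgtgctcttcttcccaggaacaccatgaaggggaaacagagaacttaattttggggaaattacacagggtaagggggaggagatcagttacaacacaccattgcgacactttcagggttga
Il1b: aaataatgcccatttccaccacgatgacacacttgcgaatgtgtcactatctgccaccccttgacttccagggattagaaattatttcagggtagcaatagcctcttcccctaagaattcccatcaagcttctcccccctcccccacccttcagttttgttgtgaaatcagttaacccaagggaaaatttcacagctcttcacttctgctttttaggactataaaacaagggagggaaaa
Both strands of 15 such windows, which belong to the 10 members, were searched for the AP-1 motif, the C/EBP motif TTGCNNAA, the STAT motif TTCNNNGAA and the NF-kappaB motif. Of all 32851 windows of this length, 6.58% held the AP-1 letters, 9.29% the C/EBP letters, 6.77% the STAT letters and 3.75% the NF-kappaB letters. The upstream Il1rn window held TGAGTCA from 141 to 135 bases before the start. A window of Il1r1 held an NF-kappaB match from 232 to 223 bases before its start, and another of its windows a C/EBP match. C/EBP matches were also found in windows of Il18bp, Il33 and Il1rl1, and a STAT match in one of Il1r2. The downstream Il1rn window and the Il1b window shown held none of the 4 motifs. A match describes letters in a window and not binding.

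Values are FPKM (fragments scaled to exon length and library size), which allow levels of different genes to be compared roughly. The length covers all annotated exons of a gene, 11360 bases for Il1rap and 1031 for Il18. The order of the genes and the ratios between them thus depend on the annotation. Over the 12 libraries Il18 had the highest median level, 31.0 FPKM, followed by Il1rn at 10.7, Il1r1 at 7.58, Il18bp at 6.70 and Il1b at 3.75 FPKM. Il33 and Il1rl1 had medians of 2.29 and 2.27 FPKM, and the lowest were Il1rap at 1.02, Il1r2 at 0.783 and Il1a at 0.289 FPKM. The ranges of every pair of neighbours in this order overlapped. Each library held between 14657796 and 17932280 fragments on genes, recovered from the FPKM and the exon lengths. The markers of colonic epithelium summed to between 6362 and 20707 FPKM, so the tissue label was met in every library. Squamous and smooth muscle markers set 2 libraries apart. In CD replicate 3 the squamous keratin Krt15 was at 17.4 FPKM, against 0.503 FPKM at most elsewhere. Smooth muscle markers summed to 2953 FPKM in HFD+DSS replicate 3 against at most 1726 FPKM in any other library. Hoxa13, Hoxb13 and Hoxd13, posterior Hox genes that mark position along the gut, averaged between 0.47 and 5.11 on the log2(FPKM + 1) scale. Hoxb13 was at most 0.711 FPKM in HFD replicates 1 and 2 and CD+DSS replicates 2 and 3. In the other libraries it was at 19.3 to 62.8 FPKM. The low libraries all lie in HFD or CD+DSS. For every gene, 3 kinds of difference thus cannot be fully told apart from this split. They are those between the diets, those with DSS within a diet, and the interaction of diet and DSS. The averaged DSS comparison has as many low libraries with DSS as without. In bulk tissue, fewer cells of a type and less RNA per cell cannot be told apart.

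**Figure D1:**
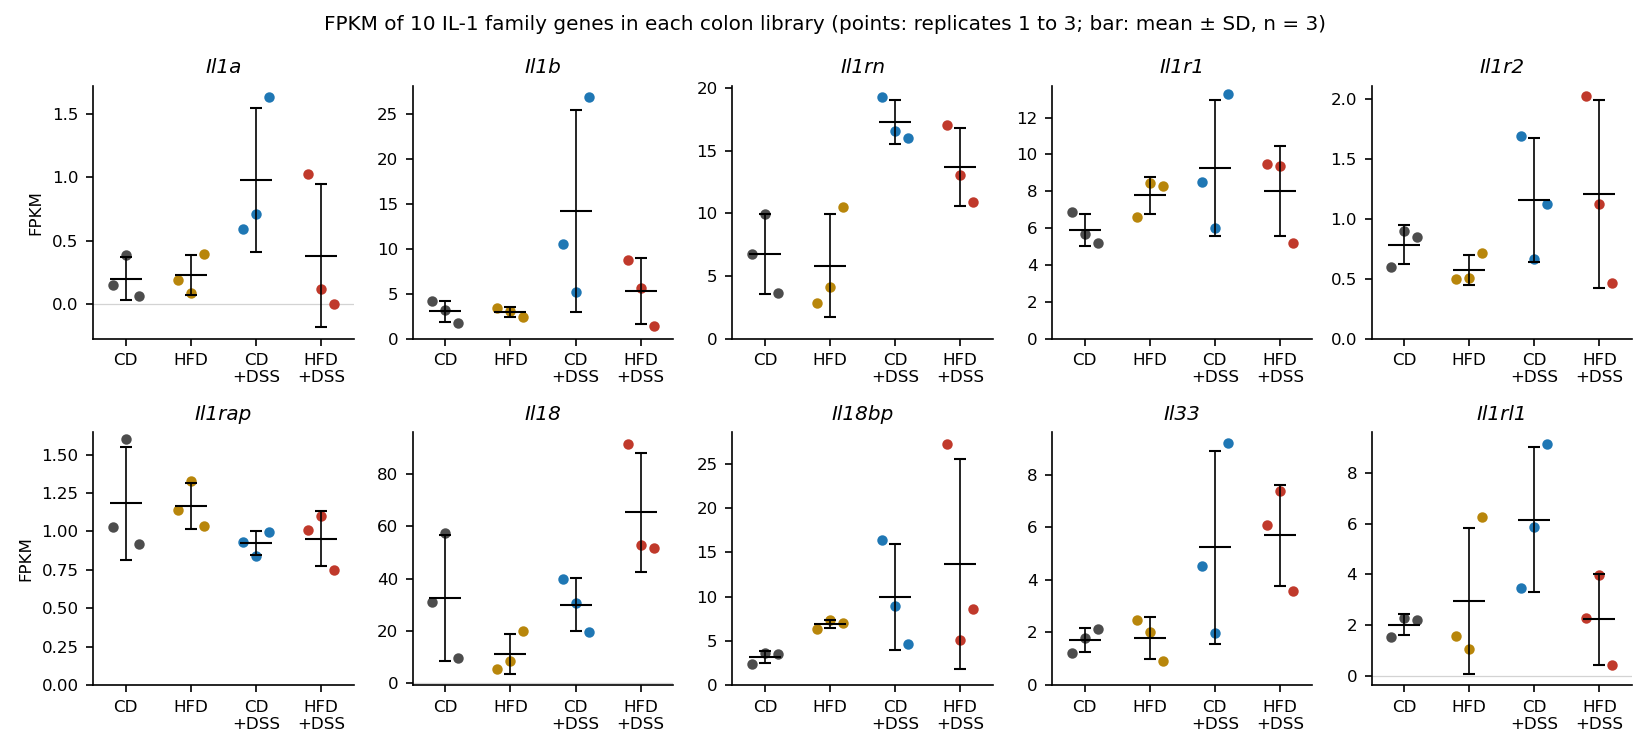
FPKM of the 10 members (vertical axes) in the 4 groups (horizontal axes); each point is 1 library and the bars are group means ± SD (n = 3). Il1rn is above 10.9 FPKM in all DSS libraries and at or below 10.5 FPKM in the others, whereas Il1b and Il33 spread widely within CD+DSS.

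Differences were tested with limma on log2(FPKM + 1), with Benjamini-Hochberg adjustment over the 14179 genes that reached 1 FPKM in 3 or more libraries, and a gene was called at an adjusted p under 0.05. Of the 10 members 9 passed the filter. Il1a did not, and Il1r2 passed only through 4 DSS libraries, so its inclusion already favours a positive difference. For DSS averaged over diet, 1 of the 9 members was called, which was Il1rn, in a comparison that called 2.74% of all genes (265 higher and 124 lower), or 1.87% as higher. By voom on the recovered fragments the same comparison called 216 genes higher and 186 lower, and again 1 member. Of the 9 members 8 had positive differences and the median difference was 0.93 on the log2 scale, against 50.9% positive and a median of 0.01 over all genes tested. At an unadjusted p under 0.05 there were 5 members, or 3329 of all genes. Members and lists were chosen with earlier results of these data known. Their shares beside those of all genes are therefore descriptions and not tests.

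**Figure D2:**
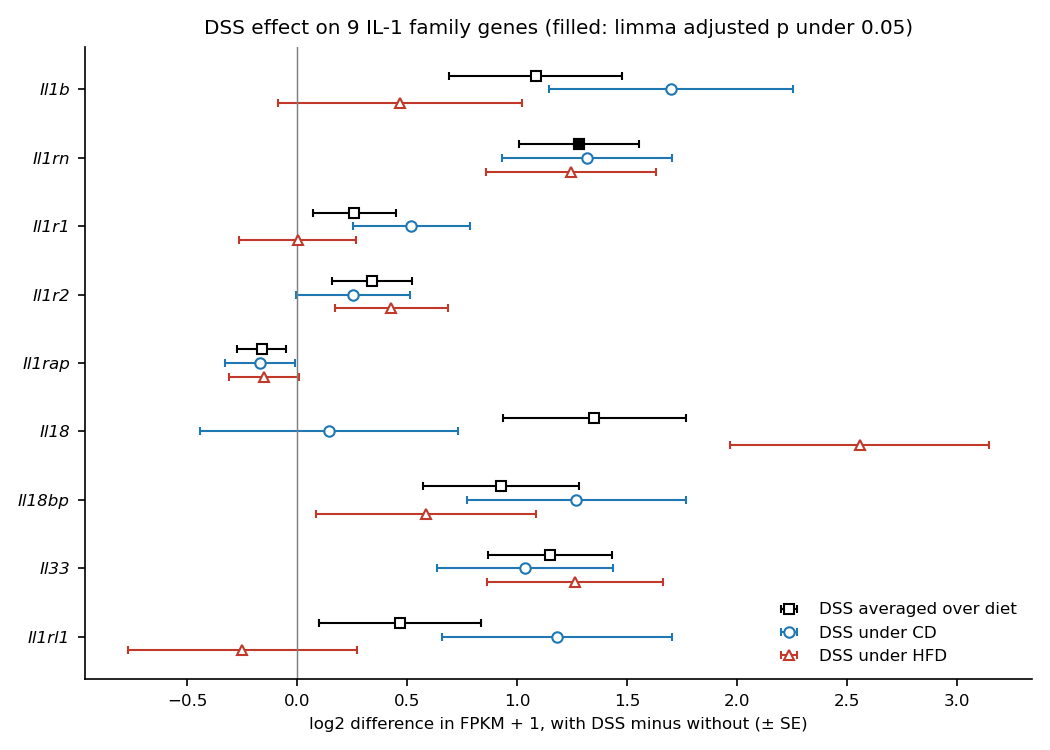
Log2 difference in FPKM + 1 between libraries with and without DSS (horizontal axis, ± SE from limma) for the 9 tested members, averaged over diet (squares), under CD (circles) and under HFD (triangles); filled symbols have an adjusted p under 0.05. Il1rn averaged over diet, at 1.28, carries the filled symbol, and the Il18 differences under the diets, 0.14 and 2.56, are the farthest apart.

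Among the ligands, Il1b encodes the cytokine that inflammasomes activate by cleavage, and lies on chromosome 2 (129364570 to 129371139, minus strand). Il1b was at 4.12, 3.20 and 1.70 FPKM in CD replicates 1 to 3, and at 3.39, 3.03 and 2.36 FPKM in HFD. It was at 10.5, 5.21 and 26.8 FPKM in CD+DSS, and at 8.77, 5.64 and 1.43 FPKM in HFD+DSS. All 3 CD+DSS libraries were above the CD libraries, whereas HFD+DSS replicate 3, the library rich in smooth muscle markers, held less Il1b than any library without DSS. The DSS difference of Il1b averaged over diet was 1.08 ± 0.39 (SE) on the log2 scale (limma adjusted p = 0.138). It was 1.70 ± 0.55 under CD (adjusted p = 0.214) and 0.47 ± 0.55 under HFD (adjusted p = 0.737). Neither passed the test, and the interaction of diet and DSS, -1.23 ± 0.78, had an adjusted p of 1.00. CD+DSS replicate 3 carried much of the Il1b difference under CD, which was 1.13 without that library. The average over both diets was 0.80 without CD+DSS replicate 3 and 1.37 without HFD+DSS replicate 3. Under HFD the difference was 0.04 without HFD+DSS replicate 1 and 1.04 without HFD+DSS replicate 3. The part of smooth muscle content in the low value of that library was not tested.

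Il1a encodes IL-1 alpha, which is active as a precursor and is released from damaged cells. It was close to the limit of these libraries. In CD it was at 0.152, 0.387 and 0.0608 FPKM, and in HFD at 0.191, 0.0861 and 0.396 FPKM, which correspond to between 2 and 12 fragments. In CD+DSS it was at 0.595, 0.713 and 1.63 FPKM (20, 19 and 48 fragments), above all libraries without DSS. The HFD+DSS libraries were at 1.03, 0.114 and 0 FPKM (31, 4 and 0 fragments), where a count of 0 allows up to 0.0796 FPKM, as counting error alone. Only 2 libraries, both with DSS, reached 1 FPKM, so Il1a was not tested. Of its exons 11.2% overlap the antisense gene Gm14023, itself at 0.126 to 0.564 FPKM, and the sources used here do not say whether the counting used strand.

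The antagonist gene Il1rn was at 6.73, 9.98 and 3.60 FPKM in CD, and at 2.87, 4.08 and 10.5 FPKM in HFD. With DSS it was at 19.3, 16.5 and 16.0 FPKM in CD+DSS, and at 17.1, 13.0 and 10.9 FPKM in HFD+DSS. All 6 DSS libraries were above all 6 others, a separation in the higher direction found for 2.17% of all genes, although HFD replicate 3 and HFD+DSS replicate 3 lay close together. Il1rn rose by 1.28 ± 0.27 on the log2 scale with DSS averaged over diet (limma adjusted p = 0.0370). Mean levels were 6.77 ± 3.19 FPKM for CD and 17.3 ± 1.77 FPKM for CD+DSS (SD, n = 3). The corresponding means for HFD and HFD+DSS were 5.83 ± 4.12 and 13.7 ± 3.13 FPKM. Within a diet the difference was 1.32 ± 0.39 under CD (adjusted p = 0.179) and 1.25 ± 0.39 under HFD (adjusted p = 0.215), neither of which passed. The interaction was -0.07 ± 0.55.

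The Il1rn call was a narrow one. Over the 12 omissions of 1 library the difference stayed between 1.11 and 1.51, and the call held in 4. It was lost without CD replicate 1, HFD replicate 1 or 2, any CD+DSS replicate, or HFD+DSS replicate 1 or 2, with adjusted p from 0.0549 to 0.114. Without the libraries that stood apart, the difference was 1.11 without CD replicate 3 (limma adjusted p = 0.0487) and 1.35 without HFD+DSS replicate 3 (0.0493). The call was also lost with no filter on low values, where 30860 genes were tested (adjusted p = 0.0886). With the posterior Hox level as a covariate the averaged difference was 1.34 (adjusted p = 0.0157), but the differences within the diets moved apart, to 2.11 under CD and 0.57 under HFD, with adjusted p of 0.555 and 0.716.

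Il1r1, the signalling receptor, was at 6.88, 5.67 and 5.17 FPKM in CD and at 6.61, 8.44 and 8.28 FPKM in HFD. It was at 8.48, 6.02 and 13.3 FPKM in CD+DSS and at 9.45, 9.36 and 5.20 FPKM in HFD+DSS. The groups overlapped, and the DSS difference averaged over diet was 0.26 ± 0.19 (limma adjusted p = 0.424). Its co-receptor Il1rap stayed between 0.752 and 1.60 FPKM in all libraries, with a DSS difference of -0.16 ± 0.11 (adjusted p = 0.409). Il1rap was the 1 member with a negative averaged difference.

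The decoy receptor Il1r2 was at 0.494 to 0.900 FPKM in the 6 libraries without DSS, which is 15 to 27 fragments at these depths. In CD+DSS it was at 1.69, 0.660 and 1.12 FPKM, and in HFD+DSS at 2.03, 1.12 and 0.467 FPKM. The highest values were thus in DSS libraries, but CD+DSS replicate 2 lay within the range of the libraries without DSS and HFD+DSS replicate 3 below it. The difference was 0.34 ± 0.18 (limma adjusted p = 0.282), on a log2(FPKM + 1) scale that understates changes of so low a gene.

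Il18 encodes a ligand that, like IL-1 beta, is made as an inactive precursor. It was at 31.2, 57.6 and 9.42 FPKM in CD and at 5.42, 8.58 and 20.0 FPKM in HFD. With DSS, Il18 was at 39.7, 30.8 and 19.4 FPKM in CD+DSS and at 91.6, 52.8 and 51.8 FPKM in HFD+DSS. The HFD+DSS libraries were all above the CD+DSS and HFD libraries, whereas CD and CD+DSS overlapped. The DSS difference of Il18 was 0.14 ± 0.59 under CD (limma adjusted p = 0.925) and 2.56 ± 0.59 under HFD (unadjusted p = 0.00109, adjusted p = 0.108). Averaged over diet it was 1.35 ± 0.42 (adjusted p = 0.0968). The test of the difference between the diets, the interaction, gave 2.41 ± 0.83 with an unadjusted p of 0.0140 and an adjusted p of 0.772, which did not pass the test. Leaving out 1 library moved the interaction between 1.85 (without CD replicate 2) and 3.10 (without CD replicate 3).

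The Il18 level was set beside the posterior Hox level of the libraries. On the log2(FPKM + 1) scale the mean of the 3 Hox genes was 3.63, 5.11 and 3.13 in the CD libraries and 1.23, 1.37 and 3.53 in those of HFD. It was 3.26, 0.47 and 1.21 under CD+DSS and 3.80, 3.74 and 4.57 under HFD+DSS. HFD replicates 1 and 2 had low Hox levels and the lowest Il18, and the HFD+DSS libraries had high Hox levels and high Il18. Without DSS, Il18 followed the order of the Hox level in every library. It was at 5.42 FPKM in HFD replicate 1, 9.42 FPKM in CD replicate 3 and 57.6 FPKM in CD replicate 2. With DSS this order was kept only in part. CD+DSS replicate 2, with the lowest Hox level of all, held 30.8 FPKM of Il18, and CD+DSS replicate 3 held 19.4 FPKM. With the Hox level as a covariate, the Il18 interaction was 0.21 ± 0.99, the difference under HFD 1.54 (adjusted p = 0.657), the difference under CD 1.33, and that between HFD+DSS and CD+DSS turned from 1.10 to -0.12. The averaged DSS difference of Il18 was 1.43 ± 0.32 in that fit (adjusted p = 0.0537). Diet, DSS and the Hox level are unevenly spread over the 12 libraries.

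**Figure D3:**
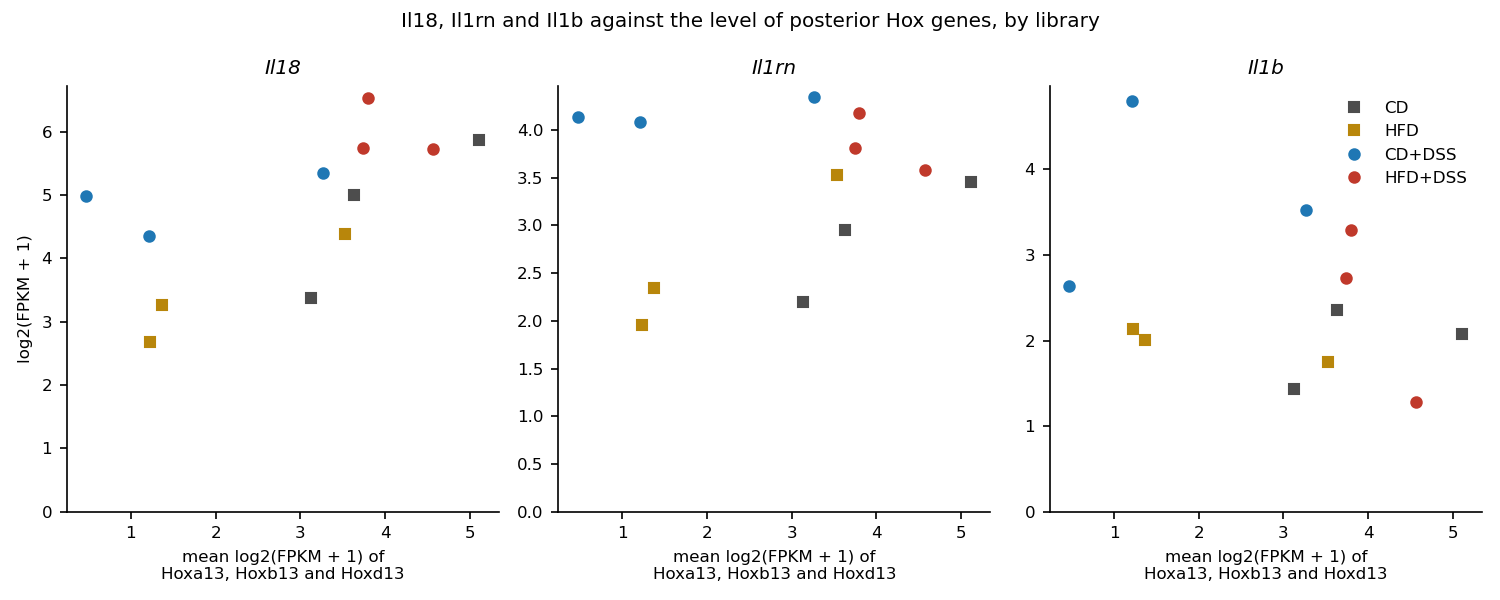
Log2(FPKM + 1) of Il18, Il1rn and Il1b (vertical axes) against the mean log2(FPKM + 1) of Hoxa13, Hoxb13 and Hoxd13 (horizontal axes); each symbol is 1 library, squares without DSS and circles with DSS. HFD replicates 1 and 2, at Hox levels of 1.23 and 1.37, have the lowest Il18, and in Il1rn all circles lie above all squares.

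Il18bp, the secreted inhibitor of IL-18, was at 2.34, 3.62 and 3.49 FPKM in CD and at 6.39, 7.36 and 7.00 FPKM in HFD. In CD+DSS it was at 16.4, 8.89 and 4.63 FPKM and in HFD+DSS at 27.3, 5.10 and 8.66 FPKM. The CD libraries were the lowest of the 12, so that HFD lay above CD and CD+DSS above CD without overlap, whereas HFD+DSS overlapped both HFD and CD+DSS. The HFD difference without DSS was 0.95 ± 0.50 (limma adjusted p = 1.00), and the DSS difference averaged over diet was 0.93 ± 0.35 (adjusted p = 0.153). Under HFD the DSS difference of 0.58 ± 0.50 rested on HFD+DSS replicate 1 and was -0.04 without it. The markers of T and NK cells, 8 genes, summed to 18.6 to 48.1 FPKM in CD and to 60.1 to 80.9 FPKM in HFD. This was the same order as that of Il18bp without DSS. With DSS the markers summed to 53.2 to 115.0 FPKM in CD+DSS and to 20.4 to 43.3 FPKM in HFD+DSS. These sums did not overlap, whereas Il18bp overlapped between the DSS groups. The part of T and NK cells in the Il18bp values was not tested. Il18bp shares 80 exonic bases with Numa1 on the other strand, which was at 18.7 to 31.0 FPKM.

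Il33 encodes an alarmin that is stored in nuclei. It was at 1.23, 1.81 and 2.12 FPKM in CD and at 2.46, 2.00 and 0.904 FPKM in HFD. Il33 was at 4.54, 1.98 and 9.20 FPKM in CD+DSS and at 6.11, 7.37 and 3.59 FPKM in HFD+DSS. Of the 6 DSS libraries 5 were above all others, and CD+DSS replicate 2 lay among the libraries without DSS. The averaged DSS difference was 1.15 ± 0.28 (limma adjusted p = 0.0549), with 1.04 ± 0.40 under CD and 1.26 ± 0.40 under HFD (adjusted p = 0.270 and 0.215). The difference under CD was 0.59 without CD+DSS replicate 3 and 1.48 without CD+DSS replicate 2. Il33 passed the threshold without CD+DSS replicate 2 (1.37 ± 0.23, adjusted p = 0.0182), with quantile normalization (adjusted p = 0.0434) and in none of the other alternatives. CD+DSS replicate 2 also had the lowest summed fibroblast markers, 113.5 FPKM, against 319.4 FPKM in CD+DSS replicate 3, the library with the most Il33. Among the DSS libraries Il33 followed the order of the fibroblast sums, except in CD+DSS replicate 1 and HFD+DSS replicate 1. These held 4.54 and 6.11 FPKM of Il33 at sums of 233.8 and 152.8 FPKM. Among the libraries without DSS the exceptions were CD replicate 3 and HFD replicate 1. Their Il33 was at 2.12 and 2.46 FPKM at sums of 253.7 and 234.8 FPKM. Between libraries with and without DSS the order was not kept. HFD+DSS replicate 3, at a sum of 143.6 FPKM, held 3.59 FPKM of Il33, more than CD replicate 3. The part of fibroblast content in the Il33 values was not tested.

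Il1rl1, which encodes the IL-33 receptor ST2, was at 1.54, 2.27 and 2.22 FPKM in CD and at 1.58, 1.04 and 6.28 FPKM in HFD. It was at 3.47, 5.88 and 9.15 FPKM in CD+DSS and at 2.26, 3.99 and 0.403 FPKM in HFD+DSS. The CD+DSS libraries were all above the CD libraries, while HFD and HFD+DSS overlapped. The DSS difference was 1.18 ± 0.52 under CD (limma adjusted p = 0.320) and -0.25 ± 0.52 under HFD (adjusted p = 0.863). HFD+DSS was lower than CD+DSS by a difference of -1.26 ± 0.52 (adjusted p = 0.746), which was -0.75 without HFD+DSS replicate 3, and the interaction of -1.43 ± 0.74 did not pass (adjusted p = 0.978). Values per gene do not separate the membrane from the soluble form.

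Within the single comparisons no member was called by limma or by voom. Under CD, where DSS called 0.0846% of all genes, 5 of 9 members had an unadjusted p under 0.05, as had 15.2% of all genes. Il1b, Il1rn, Il18bp and Il1rl1 were higher in all 3 CD+DSS libraries than in any CD library, 4 of 9 members against 13.7% of all genes. Under HFD, where 0.339% of all genes were called, 3 of 9 members (Il1rn, Il18 and Il33) had an unadjusted p under 0.05, as had 13.6% of all genes. These were also the ones without overlap, 3 of 9 against 8.82% of all genes. HFD against CD called 0% of all genes without DSS and 0% with DSS, and 0% were called for the interaction. At an unadjusted p under 0.05 these 3 comparisons held 588, 938 and 769 genes, and 1, 2 and 1 members. Without DSS, Il18bp was the only member higher in HFD without overlap (4.61% of all genes), and none was lower without overlap (5.02% of all genes). With DSS, Il18 was the only one (3.60% of all genes).

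Ratios within a library set each inhibitor or receptor beside its partner and carry no test. How often ratios of other gene pairs separate 3 libraries from 3 was not counted. A lack of overlap between groups is therefore a description. The Il1rn to Il1b ratio was 1.63, 3.12 and 2.12 in CD and 0.846, 1.34 and 4.46 in HFD. It was 1.83, 3.18 and 0.596 in CD+DSS and 1.95, 2.31 and 7.65 across HFD+DSS. The ratio thus overlapped between all groups, with its extremes in the DSS libraries of highest and lowest Il1b, CD+DSS replicate 3 and HFD+DSS replicate 3. The Il1r2 to Il1r1 ratio was 0.0599 to 0.0867 in HFD, below all HFD+DSS libraries, which were at 0.0898 to 0.215. It was 0.0868 to 0.164 in CD and 0.0846 to 0.20 in CD+DSS, which overlapped.

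The Il18bp to Il18 ratio was 0.0750, 0.0628 and 0.370 in CD and 1.18, 0.858 and 0.350 in HFD. It was 0.414, 0.288 and 0.238 in CD+DSS and 0.298, 0.0965 and 0.167 across HFD+DSS. All HFD+DSS libraries were below all HFD libraries, while CD overlapped both DSS groups. The Il1rl1 to Il33 ratio was 0.764, 2.97 and 0.995 in CD+DSS and 0.370, 0.542 and 0.112 across HFD+DSS, with no overlap between these groups. Without DSS it was 1.26, 1.26 and 1.05 in CD and 0.641, 0.521 and 6.95 in HFD, where replicate 3 combined the lowest Il33 of all libraries with high Il1rl1.

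**Figure D4:**
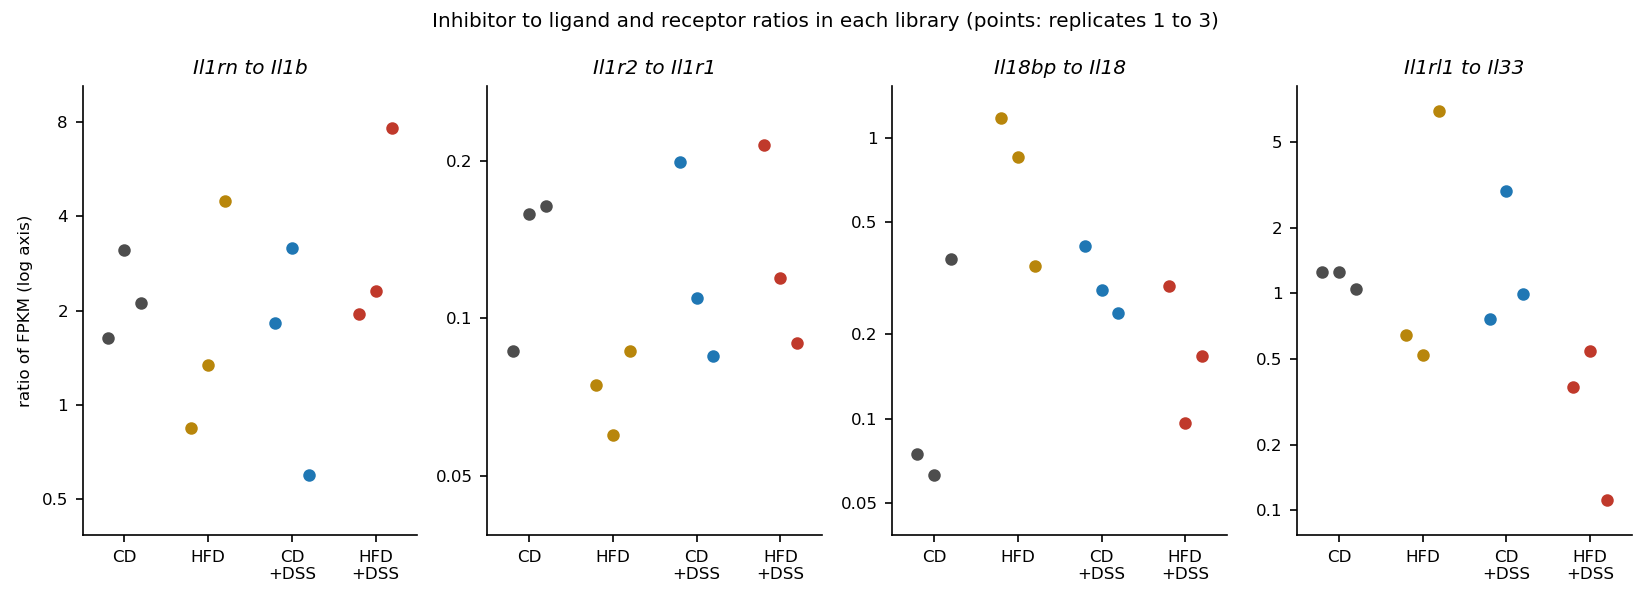
Ratios of FPKM within each library (vertical axes, logarithmic) for Il1rn to Il1b, Il1r2 to Il1r1, Il18bp to Il18 and Il1rl1 to Il33, by group; each point is 1 library. The Il1rl1 to Il33 ratio is at most 0.542 in HFD+DSS and at least 0.764 in CD+DSS, whereas the Il1rn to Il1b ratio overlaps in all groups.

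Among themselves the members did not move as a block. Over the 12 libraries, as a description on the log2(FPKM + 1) scale, Pearson's r was highest between Il1b and Il1r1 (0.82), Il1rn and Il18 (0.79) and Il1b and Il33 (0.71). Il33 and its receptor gene Il1rl1 had an r of 0.25, and Il18 and Il18bp of 0.37. These correlations span 4 groups and share the libraries' composition.

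The genes outside the members whose pattern was most like a member's differed between the ligands. For Il1b they were Inhbb (r = 0.90), Pappa (0.90), Lama1 (0.89), Ccl3 (0.89), a chemokine, and Sema7a (0.88). Il1r1 was most like Pdpn (0.86), a marker of fibroblasts and lymphatic vessels, Pappa (0.86), Ptgs2 (0.86), the inducible cyclooxygenase, Ch25h (0.85) and Nrg1 (0.85). For Il33 the nearest were Tspan4 (0.96), Serpina3n (0.95), Lgi2 (0.94), Igfbp5 (0.94) and Sh3pxd2b (0.93). Il18 was nearest to Rdh16 (0.95), Slc45a3 (0.94), Prdx6 (0.93), Gpc4 (0.93) and Sh3d21 (0.93). Il1b and Il1r1 shared Pappa among their nearest 5.

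The remaining ligands of the family were nearly silent. Of the 5 listed, Il1f5 and Il1f10 had no fragment in any library, and Il1f6, the gene of IL-36 alpha, had 1 fragment in 1 library. Il1f9, the gene of IL-36 gamma, had none in the 6 libraries without DSS and 1 to 9 fragments in 5 of the 6 with DSS. Il1f8, the gene of IL-36 beta, had 0 to 13 fragments. Of 6 further receptors 2 were tested and none was called: the inhibitory receptor Sigirr had a DSS difference of 0.41 ± 0.17 (limma adjusted p = 0.177), and Il18r1, the IL-18 receptor chain, of -0.31 ± 0.16 (adjusted p = 0.278).

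Of 17 genes of receptor-proximal signalling, all tested, 2 rose with DSS averaged over diet, where 1.87% of all genes were called higher, and none fell. The adaptor Myd88 was at 14.7 to 23.0 FPKM with DSS and at 11.5 to 13.4 FPKM without (0.57 ± 0.11, limma adjusted p = 0.0245). Rela, the p65 subunit of NF-kappaB, was at 18.8 to 23.7 FPKM with DSS and at 15.3 to 16.6 FPKM without (0.40 ± 0.08, adjusted p = 0.0312). Neither overlapped between the DSS and other libraries, yet the list as a whole had 10 positive differences and a median of 0.02. The Rela call was lost by voom (adjusted p = 0.116), after rescaling every library to an equal total (0.195) and with quantile normalization (0.0795), and that of Myd88 after the rescaling (0.0587). Leaving out CD replicate 1 or 2, HFD replicate 1 or 2, or CD+DSS replicate 1 ended both calls, and leaving out CD+DSS replicate 3 or HFD+DSS replicate 2 that of Rela, with adjusted p from 0.0540 to 0.0928.

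Of 10 genes that process the precursors 9 were tested, and 2 rose, beside the same 1.87% of all genes. Gsdmd, which encodes the pore through which mature IL-1 beta and IL-18 leave the cell, was at 59.0 to 113.4 FPKM with DSS and at 27.2 to 37.9 FPKM without. Its difference was 1.12 ± 0.16 (limma adjusted p = 0.00773), and the call held in all 19 alternatives. Under HFD it rose by 1.29 ± 0.22 (adjusted p = 0.0391), a call that only the omission of HFD+DSS replicate 2 or CD+DSS replicate 2 among the 12 omissions left in place, the others giving adjusted p from 0.0553 to 0.225. Nlrp6, an inflammasome sensor of the gut epithelium, was at 58.8 to 105.7 FPKM with DSS and at 42.2 to 57.3 FPKM without (0.58 ± 0.13, adjusted p = 0.0408). The Nlrp6 call was kept by 3 of the 12 omissions, those of CD replicate 3, CD+DSS replicate 3 and HFD+DSS replicate 1, and otherwise gave adjusted p from 0.0560 to 0.118. It was also lost with no filter (0.0682), after rescaling to equal totals (0.0679), with quantile normalization (0.0716) and with the Hox covariate (0.0596). Capn2, the next by p, had a difference of 0.32 ± 0.13 (adjusted p = 0.165).

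Downstream of the receptors, 8 of the 18 tested genes in a list of 20 IL-1 and NF-kappaB response genes rose with DSS averaged over diet, where 1.87% of all genes were called higher. All 18 differences were positive with a median of 0.75, against 50.9% positive and a median of 0.01 over all genes. The list was chosen with earlier results of these data known, so this contrast is a description and not a test. The matrix protease gene Mmp3 was at 10.1 to 47.4 FPKM with DSS against 0.220 to 0.989 FPKM without (3.52 ± 0.28, limma adjusted p = 0.000472). Saa3, an acute phase gene, was at 11.7 to 75.9 FPKM against 0.220 to 4.93 FPKM (3.36 ± 0.43, adjusted p = 0.00528). Lcn2, which encodes the iron-sequestering protein lipocalin 2, rose by 1.92 ± 0.28, Ccl2, a monocyte chemokine, by 1.71 ± 0.28, and Zc3h12a, the RNase regnase-1, by 1.00 ± 0.15. These 5 calls held in all 19 alternatives. The neutrophil chemokines Cxcl5 and Cxcl1 rose by 2.25 ± 0.41 and 1.38 ± 0.32, and the collagenase gene Mmp13 by 1.62 ± 0.31. Mmp3, Lcn2, Cxcl5 and Cxcl1 were under 1 FPKM in every library without DSS and so entered the test through DSS libraries alone. The list holds targets of other receptors of the same pathway as well, and its genes were not measured after blocking IL-1.

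The calls of Cxcl5, Mmp13 and Cxcl1 depended on single libraries. That of Cxcl5 was lost without CD replicate 1 or HFD replicate 2 (adjusted p of 0.0597 and 0.0580). The call of Mmp13 was lost without CD replicate 2, HFD replicate 1 or 2, or CD+DSS replicate 3 (0.0519 to 0.0672). Cxcl1 was kept only without 1 of the CD+DSS replicates or HFD+DSS replicate 3, and in the other 8 omissions its limma adjusted p was 0.0581 to 0.117. With no filter all 3 were lost (0.0574 to 0.106), and Cxcl1 also with the Hox covariate (0.0617). Within a diet, Mmp3 rose under CD (3.70 ± 0.39, adjusted p = 0.0163) and under HFD (3.34 ± 0.39, adjusted p = 0.00842). Saa3 rose under CD (3.98 ± 0.61), and Zc3h12a and Nfkbiz, an NF-kappaB cofactor, rose under HFD (1.34 ± 0.21 and 1.12 ± 0.19). The Mmp3 calls were lost under CD without CD replicate 1 or HFD replicate 2 (0.0508 to 0.0683), under HFD without HFD replicate 1 or 2 (0.0570 to 0.0590), and in both with the Hox covariate (0.127 and 0.114) and by voom (0.0690 and 0.0513). Under CD it was also lost in a fit of CD and CD+DSS alone (0.0830). Saa3 kept its call under CD in 4 of the 12 omissions, those of CD replicate 3, HFD replicate 3, CD+DSS replicate 1 and HFD+DSS replicate 1, and otherwise had an adjusted p of 0.0615 to 0.226. Under HFD, Zc3h12a kept its call without CD replicate 3, CD+DSS replicate 1 or 2, or HFD+DSS replicate 3 (otherwise 0.0505 to 0.122), and Nfkbiz only without HFD+DSS replicate 2 (otherwise 0.0515 to 0.165). These 3 calls and that of Gsdmd under HFD were each lost with the Hox covariate (0.114 to 0.644), with no filter (0.0862 to 0.130) and in a fit of the compared groups alone (0.121 to 0.166). Saa3 was also lost by voom (0.0974) and with quantile normalization (0.0579), and Zc3h12a and Nfkbiz after rescaling to equal totals (0.0849 and 0.0704).

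**Figure D5:**
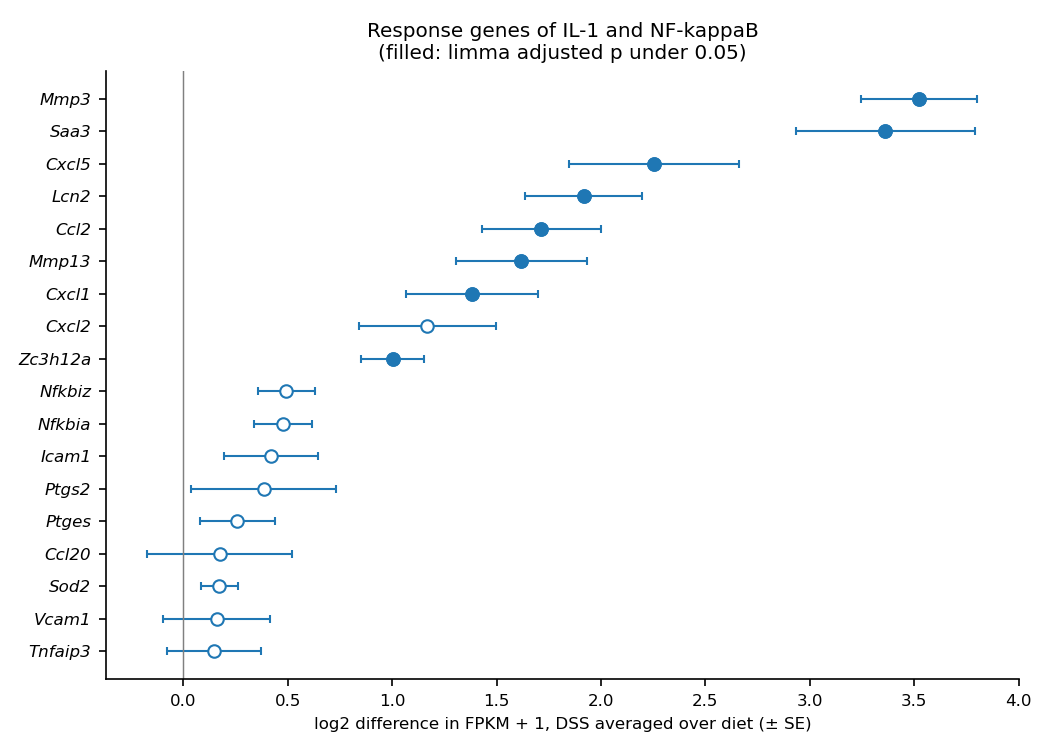
Log2 difference in FPKM + 1 with DSS averaged over diet (horizontal axis, ± SE from limma) for the 18 tested IL-1 and NF-kappaB response genes; filled symbols have an adjusted p under 0.05. All 18 are to the right of 0, and 8 pass the test, from Zc3h12a at 1.00 to Mmp3 at 3.52.

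The lists that read IL-33 and IL-18 showed no calls. Of 15 genes of ST2-bearing cells and their products 6 were tested. The mast cell proteases Mcpt1 and Mcpt2 had DSS differences of 1.37 ± 0.37 and 1.03 ± 0.29 (limma adjusted p = 0.0696 and 0.0789), and Kit, the receptor of mast cell growth factor, of -0.58 ± 0.19 (adjusted p = 0.120). Of 8 IL-18 response genes 3 were tested, the interferon-induced chemokine genes Cxcl10 and Cxcl9 and the granzyme gene Gzmb, with differences of 0.40 ± 0.38, -0.09 ± 0.37 and 0.19 ± 0.33. Their median was 1.02 under CD and -1.09 under HFD, whereas that of Il18 itself was near 0 under CD and positive under HFD. The T and NK cell markers had the same signs as these 3 genes, with 6 of 7 positive under CD and 0 of 7 under HFD, and their part in the response genes was not tested.

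Markers of myeloid cells bear on Il1b and Il1rn, which such cells express. Of the 9 neutrophil markers 5 were tested, and 4 of these had a positive averaged difference. S100a9 was at 0 to 0.977 FPKM without DSS and at 2.91 to 16.6 FPKM with it (2.46 ± 0.40, limma adjusted p = 0.0123), and entered the test through DSS libraries alone. It was highest in CD+DSS replicate 3, where Il1b was highest too. The neutrophil list summed to 43.1 to 257.0 FPKM without DSS and to 112.0 to 594.2 FPKM with it, sums that rest largely on Ly6g and Cd177, which were also high without DSS (up to 165.2 and 128.8 FPKM). S100a8 was at 0 to 0.452 FPKM without DSS and at 0.427 to 22.3 FPKM with it (adjusted p = 0.0727). It too entered the test through DSS libraries alone. The inclusion of S100a8 and S100a9 thus already favours a positive difference. Csf3r was at 0.423 to 1.08 FPKM without DSS and at 0.552 to 2.55 FPKM with it (adjusted p = 0.196). Cd177 overlapped, at 33.0 to 128.8 FPKM without DSS and at 29.2 to 132.2 FPKM with it. Retnlg, Cxcr2, Mmp8 and Trem1 were too low to be tested. Trem1 overlapped too, at 0.0419 to 0.340 FPKM without DSS and at 0.0525 to 1.12 FPKM with it. Retnlg was at most 0.106 FPKM without DSS and at 0.125 to 2.60 FPKM with it. Cxcr2 was at most 0.0209 FPKM without DSS and up to 0.462 FPKM with it, and Mmp8 at most 0.0538 and up to 0.442 FPKM. The 9 monocyte and macrophage markers summed to 63.1 to 95.1 FPKM without DSS and to 57.0 to 106.4 FPKM with it. Cd14 was the 1 of them that rose (0.81 ± 0.12, adjusted p = 0.00928), and the median difference of the list was -0.18. The part of cell composition in the Il1rn and Il1b values was not tested.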

How the data were processed

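RNA of 12 mouse colon samples in 4 groups of 3 was sequenced from SMARTER mRNA-Seq libraries, per the labels. The authors deposited 1 table of FPKM values for 54532 genes, and the submitters' processing notes name the mm10 build. For the aligner, the counting tool and its strand setting the sources used here give nothing. Symbols and positions came from GENCODE M21, which named 54495 identifiers.

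The deposited FPKM step in whole fragments: with the exon lengths, 97.0% to 97.2% of values per library came out whole within 0.1 fragment, which gave the depth of each library. The median ratio to the geometric mean was 1.009 in every library, so the values had already been scaled to equal median ratios. Counts and limits of counts cover counting error only.

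Values were analysed as log2(FPKM + 1) with limma 3.58.1 in R 4.3.3 (a trend over mean expression), for genes that reached FPKM 1 in 3 or more samples. A single fit over the 12 samples estimated the 4 group means without covariates, all tests were two-sided, and p-values were adjusted by Benjamini-Hochberg over 14179 genes. Fold changes on this scale understate changes of low genes. On simulated data of the averaged DSS comparison, 81.0% of 100 genes changed by 1 on the log2 scale were recovered, and 96.0% of 100 changed by 2. The changed genes were drawn only from those of higher mean level, with independent noise in each library. These shares do not apply to low members such as Il1r2 and Il1rap, nor to any single member. The alternatives were a pseudocount of 0.1, no filter, rescaling to equal totals, quantile normalization, voom on recovered fragments, a replicate block, the posterior Hox level as covariate, the groups compared alone, and omission of each library.

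The 10 members, 7 pathway lists and 12 marker lists were chosen with earlier results of these data known. All members are named, and of each pathway list the genes called, or else the 3 with the smallest unadjusted p in DSS averaged over diet. For 4 members the 5 genes of highest Pearson r are named.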

Additional observations from a re-analysis of the deposited data

How the results depend on the processing

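Of the 72 log2 differences of single genes examined, 1274 of 1405 recomputed values kept direction and side of the threshold, 127 fell out of significance, 2 entered it and 2 reversed. A change of sign was counted as a reversal where the original value was called or at least 1 SE from 0. The reversals were Il18 in HFD+DSS against CD+DSS, -0.12 with the posterior Hox level as covariate, and Il18bp for DSS under HFD, which was -0.044 without HFD+DSS replicate 1 and up to 1.06 over the other omissions of 1 library. The number of members called for DSS averaged over diet was 1, and became 0 with no filter on low values, 2 with quantile normalization (Il1rn and Il33) and 0 with the replicate block. It was 0 to 1 over the omissions. In the other 5 comparisons no member was called under any alternative. Over all genes, DSS averaged over diet called 389, against 173 with no filter, 219 after rescaling to equal totals, 162 with the replicate block, and 115 to 479 over the omissions. DSS under CD called 12, against 5 with no filter, 2 with the replicate block, 0 with the Hox covariate, 0 in the groups alone, and 0 to 36 over the omissions. DSS under HFD called 48, against 10, 12, 1 and 15 in the same order, and 1 to 78 over the omissions. The comparisons that called 0 genes called at most 3 under any alternative. The labels do not state that replicate numbers pair the samples. Deviations of the 18 same-number pairs from their group means had a median r of -0.11, and 3 were above 0.1. Such correlations cannot settle whether the samples are paired. The block ended the averaged calls of Il1rn (0.0787), Myd88 (0.0621), Rela (0.0739), Nlrp6 (0.0844), Cxcl1 (0.0857) and Mmp13 (0.0614), and under HFD those of Gsdmd (0.0730), Nfkbiz (0.0810) and Zc3h12a (0.0743), all limma adjusted p. Depth limits Il1a, Il1r2 and the IL-36 genes.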
